A study of Rattus norvegicus with 36 samples.

Results

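Dio1, Thrsp, Klf9, Thra, Thrb and Ttr are 6 genes that carry, activate, sense or respond to thyroid hormone in the liver, and they were read here across 6 dose groups of rats. The agent was hexabromocyclododecane (HBCD), a flame retardant that carries bromine. Every probe set that the platform annotation assigns to one of these symbols was taken, which gave 15 probe sets for the 6 genes, of 31042 tested probe sets and 14217 gene symbols on the array. A further probe set that lists Ttr together with other symbols was left out. The rats were male Sprague Dawley, 7 weeks old at the start, and received by gavage, at 5 ml/kg on 5 days in a row, corn oil alone (vehicle) or corn oil with HBCD. The HBCD doses were 641 and 64.1 mg/kg at the top, 6.41 mg/kg in the middle and 0.641 and 0.06 mg/kg at the bottom. Liver was taken 1 day after the last dose, and each group holds 6 arrays, 36 in all. The labels number the arrays within a group without saying that each came from its own rat, so a p-value rests on the spread among arrays, part or all of which could be technical. No hormone measurement was used here.

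The thyroid releases mostly the prohormone thyroxine, which plasma proteins such as transthyretin carry and which deiodinases in tissues convert to the active triiodothyronine. Inside cells triiodothyronine binds nuclear receptors encoded by Thra and Thrb, of which the beta form predominates in liver, and the receptors change the transcription of target genes. Hepatic Dio1 and Thrsp are classic genes that rise with the hormone and fall in hypothyroidism, and Klf9 is a direct receptor target that also answers to glucocorticoids.

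Values are the log2 levels that the authors obtained with RMA for each probe set, so a difference of 1 is a doubling. Group values are means ± SD over 6 arrays. Folds are dose over vehicle from limma, fitted over all 36 arrays, with 95% confidence intervals and Benjamini-Hochberg adjustment over 31042 probe sets, and a probe set was called at an adjusted p under 0.05. All 5 doses were set against the same 6 vehicle arrays. The liver label was checked with 6 of 7 listed hepatocyte markers, whose mean levels lay between 13.1 and 14.5, and none was called at 641 mg/kg. In whole liver, fewer cells of a type and less RNA per cell cannot be told apart.

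At 641 mg/kg 1 of the 15 probe sets was called, a probe set of Klf9 that was lower, beside 1.65% of all probe sets called in either direction, 1.13% called higher and 0.512% called lower. The remaining 14 had folds from 0.726 to 1.31 and adjusted p-values from 0.156 to 0.999. At 64.1 mg/kg none of the 15 was called, against 0.0419% of all probe sets, and at 6.41, 0.641 and 0.06 mg/kg none was called, as for all probe sets (0% at each). Over these 4 lower doses 2 of 60 tests had an unadjusted p under 0.05, both for that Klf9 probe set, and at 641 mg/kg 3 of 15 had one. The share of all probe sets with such a p was 11.4% at 641, 5.94% at 64.1, 4.13% at 6.41, 4.76% at 0.641 and 4.17% at 0.06 mg/kg. The median log2 difference of the 15 probe sets at 641 mg/kg was -0.0614, beside -0.0073 over all probe sets.

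Klf9 and Thrsp are both taken as targets of the hormone receptor in liver, and only the first of them gave a call, so the 250 bases before the transcription start of each are shown. Both come from RefSeq on assembly GRCr8, at chr1:230126396-230126645 on the plus strand for Klf9 and at chr1:161138965-161139214 on the minus strand for Thrsp. They are written 5′ to 3′, and capitals mark CCAAT or its reverse complement ATTGG.

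Klf9: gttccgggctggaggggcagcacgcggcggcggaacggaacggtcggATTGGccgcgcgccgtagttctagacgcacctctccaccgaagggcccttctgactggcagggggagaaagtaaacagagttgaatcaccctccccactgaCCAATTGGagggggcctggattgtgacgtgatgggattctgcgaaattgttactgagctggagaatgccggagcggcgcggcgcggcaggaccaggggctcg

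Thrsp: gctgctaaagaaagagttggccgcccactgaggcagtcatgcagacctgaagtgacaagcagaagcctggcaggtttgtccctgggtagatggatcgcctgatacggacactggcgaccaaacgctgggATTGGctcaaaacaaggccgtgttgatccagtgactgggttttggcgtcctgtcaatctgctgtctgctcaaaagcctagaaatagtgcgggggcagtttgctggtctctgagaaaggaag

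Motifs were searched on both strands of the window from 250 bases before to 50 after the start, in the 6 genes and in 33465 RefSeq promoters. Neither the receptor half-site AGGTCA, held by 16.2% of all promoters, nor its direct repeat with 4 bases of any kind between, the element called DR4, held by 0.00598%, was found in a window of the 6 genes. CACGTG (6.42% of promoters) and TATAAA (14.2%) were not found in them either. No match says only that these letters are not in this window. CCAAT, held by 37.5% of promoters, had 3 matches in Klf9, beginning 203, 102 and 99 bases before the start, and those at 102 and 99 overlap as the palindrome CCAATTGG. Thrsp had 1 match, beginning 121 bases before the start, Ttr had 1 just after its start, and Dio1, Thra and Thrb had none.

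Ttr encodes transthyretin, the carrier of thyroxine and retinol-binding protein in plasma. Its probe set (1367598_at) was the 5th brightest of all 31042, at a mean level of 13.99, and its SD within groups, 0.0209, was the 3rd smallest. Vehicle arrays ran from 13.96 over a median of 13.99 to 14.02, and arrays at 641 mg/kg from 13.96 over 13.98 to 14.01. The groups overlapped at every dose, and all 36 arrays lay within a 1.08-fold range. The fold at 641 mg/kg was 0.993 (95% CI 0.950 to 1.04; limma adjusted p = 0.947), and at the lower doses folds lay between 0.982 and 1.01. Limma widens the error of a probe set with so small a spread, so the interval is broader than the arrays alone would give. No detection or saturation calls were used here, so whether so bright a probe set still tracks RNA level in proportion was not tested.

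Dio1 encodes the type 1 deiodinase, which makes triiodothyronine from thyroxine and clears reverse triiodothyronine. Vehicle arrays read 6.88 at the lowest, 7.08 at the median and 7.25 at the highest (probe set 1369259_at). At 64.1 mg/kg the arrays ran from 7.10 over 7.20 to 7.26, and at 641 mg/kg from 6.73 over 6.97 to 7.06. All 6 arrays at 64.1 mg/kg thus lay above the vehicle mean of 7.07 and all 6 at 641 mg/kg below it, but both groups overlapped vehicle. Only 2 arrays at 641 mg/kg were below the lowest vehicle array.

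Neither dose differed from vehicle beyond the spread for Dio1. The fold was 1.09 (95% CI 0.976 to 1.21; limma adjusted p = 0.918) at 64.1 mg/kg and 0.915 (0.820 to 1.02; adjusted p = 0.572) at 641 mg/kg. The 641 and 64.1 mg/kg groups themselves did not overlap, with a highest array of 7.06 against a lowest of 7.10, which held in this direction for 1 of the 15 probe sets and for 0.287% of all. Their fold, 641 over 64.1 mg/kg, was 0.841 (0.753 to 0.938), which did not pass adjustment (limma adjusted p = 0.258), in a comparison that called 0.242% of all probe sets and none of the 15. Means at 0.06, 0.641 and 6.41 mg/kg were 7.12 ± 0.23, 7.05 ± 0.08 and 7.07 ± 0.08.

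**Figure D1:**
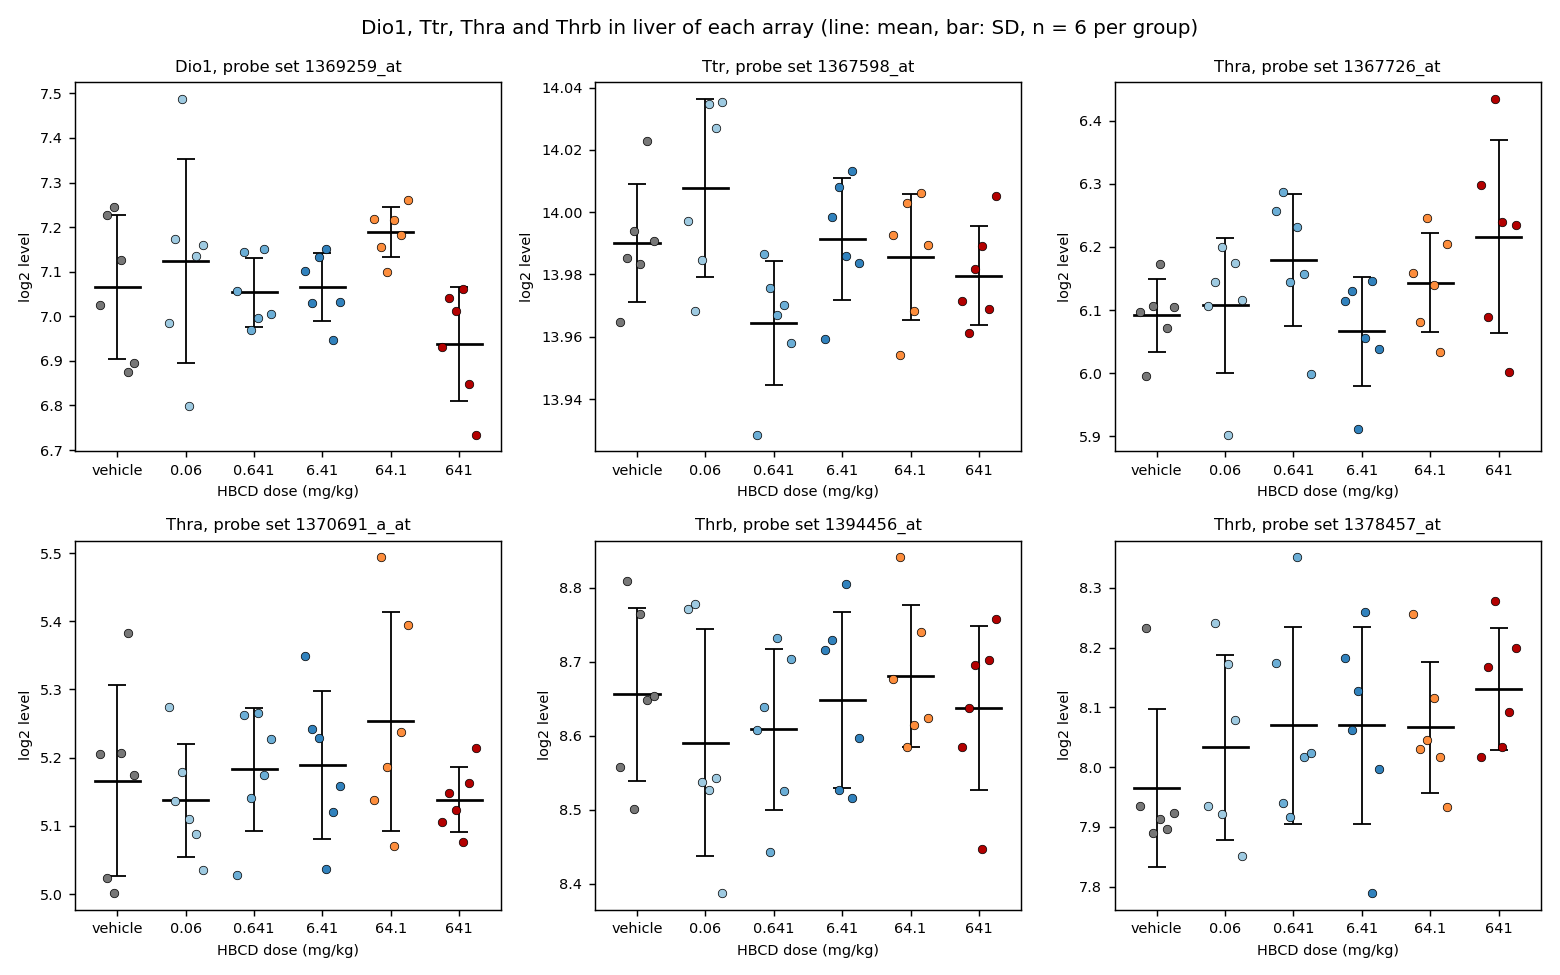
Log2 level on each array for Dio1, Ttr and the brighter probe sets of Thra and Thrb, by HBCD dose in mg/kg, with points for arrays, a line for the group mean and bars for the SD (n = 6). Every treated group overlaps vehicle in all 6 panels, and Dio1 at 641 mg/kg lies at or below 7.06 on all 6 arrays.

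Thrb encodes the beta receptor and had 4 probe sets, with means over all arrays of 8.64, 8.06, 5.08 and 3.02. The brightest (1394456_at) read 8.66 ± 0.12 in vehicle, from 8.50 over 8.65 to 8.81, and 8.64 ± 0.11 at 641 mg/kg, from 8.45 over 8.67 to 8.76. These groups covered nearly the same range, with a fold of 0.987 (95% CI 0.895 to 1.09; limma adjusted p = 0.960). The second (1378457_at) read 7.89, 7.92 and 8.23 at the lowest, median and highest vehicle array and 8.02, 8.13 and 8.28 at 641 mg/kg. All 6 arrays at that dose exceeded the vehicle mean of 7.96, and the fold of 1.12 (1.00 to 1.26) did not pass adjustment (limma adjusted p = 0.421).

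A further probe set of Thrb (1370474_at) varied widely, with a spread within groups above that of 98.85% of probe sets or equal to it. Its vehicle arrays ran from 4.44 over 5.09 to 5.43 and its arrays at 641 mg/kg from 5.12 over 5.50 to 5.62, so the groups overlapped although all 6 treated arrays were above the vehicle mean. The fold was 1.31 (95% CI 0.952 to 1.81; limma adjusted p = 0.544). Across the 36 arrays its deviations from the group means correlated at -0.579 with the 3-prime minus 5-prime level of the Gapdh control probe sets, a measure of RNA integrity or labelling, and that difference was -0.0226 ± 0.0263 at 641 mg/kg against 0.00403 ± 0.0390 in vehicle. Its part in the 1.31-fold value was not tested. The dimmest probe set (1387983_at) lay below the median of its array on every array, with folds between 0.958 at 641 mg/kg and 1.13 at 0.641 mg/kg.

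Thra encodes the alpha receptor and, from the same gene, a splice form that does not bind hormone. Of its 3 probe sets 1367726_at was brightest, and read 5.99, 6.10 and 6.17 at the lowest, median and highest vehicle array and 6.00, 6.24 and 6.43 at 641 mg/kg. The groups overlapped, although 4 of 6 treated arrays were above the highest vehicle array, and the fold was 1.09 (95% CI 1.00 to 1.19; limma adjusted p = 0.438). The probe set for alternative transcripts (1370691_a_at) read 5.17 ± 0.14 in vehicle and 5.14 ± 0.05 at 641 mg/kg, a fold of 0.981 (0.894 to 1.08; adjusted p = 0.932). The last (1380518_s_at) was dim, with a mean of 2.02, and its suffix marks probes that may match other transcripts. Across the 4 lower doses Thra folds lay between 0.953 and 1.06 and Thrb folds between 0.900 and 1.13, and none was called.

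Thrsp encodes Spot 14, a protein of fat synthesis whose hepatic message rises fast with thyroid hormone and with carbohydrate feeding. Its 3 probe sets had means of 10.55, 10.25 and 8.82, and their deviations from the group means correlated pairwise at 0.990 to 0.994 over 36 arrays, so they gave one picture. The brightest (1370150_a_at) read 9.91 at the lowest, 10.35 at the median and 11.17 at the highest vehicle array. At 641 mg/kg the arrays ran from 9.55 over 10.34 to 10.94, and those at 64.1 mg/kg from 9.77 over 10.62 to 10.80. All groups overlapped widely.

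No dose group differed from vehicle in Thrsp beyond the spread. Folds of the brightest probe set were 0.947 (95% CI 0.705 to 1.27; limma adjusted p = 0.941) at 641 mg/kg and 1.07 (0.799 to 1.44; adjusted p = 0.989) at 64.1 mg/kg. The 3 probe sets gave folds between 1.29 and 1.32 at 0.06 mg/kg. Their unadjusted limma p-values there were 0.0612, 0.0740 and 0.0920, against 0.708, 0.688 and 0.593 at 641 mg/kg. Folds lay between 1.18 and 1.20 at 0.641 mg/kg and between 1.17 and 1.20 at 6.41 mg/kg. None of these was called. At 0.06, 0.641, 6.41 and 64.1 mg/kg 5 of 6 arrays were above the vehicle mean, against 3 of 6 at 641 mg/kg. Thrsp was also among the most variable transcripts, with a spread within groups at or above that of 98.5% of probe sets and a 3.22-fold range between its lowest and highest array. The interval at 641 mg/kg therefore leaves room for a fall to 0.705 or a rise to 1.27.

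**Figure D2:**
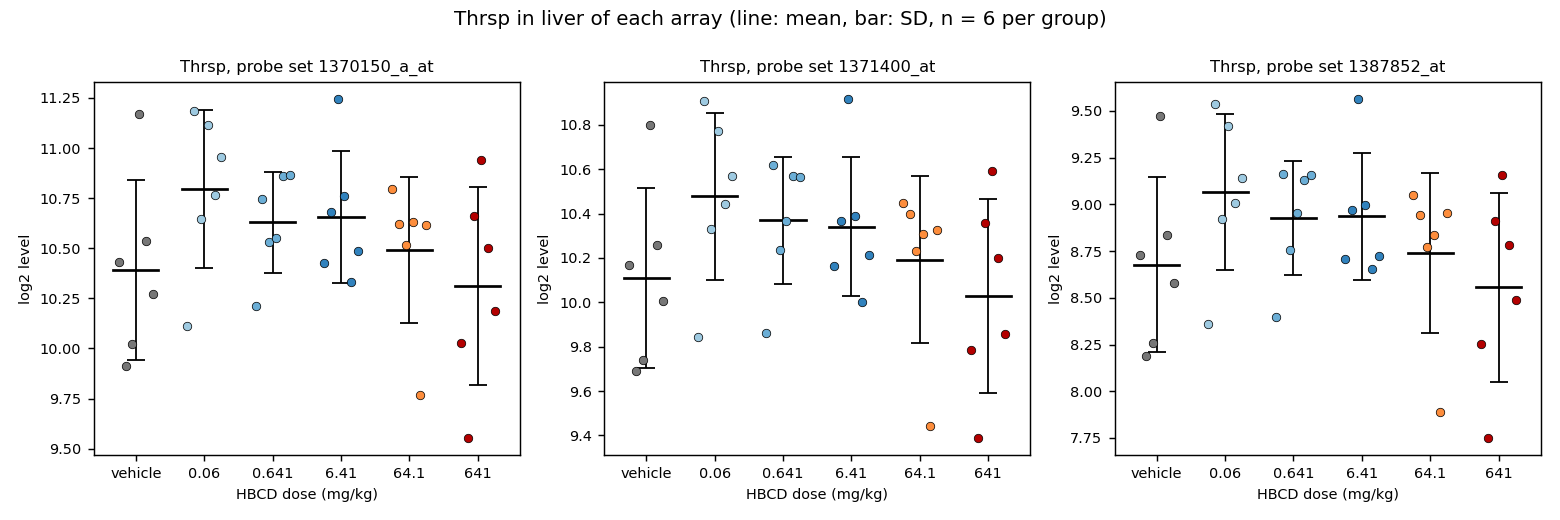
Log2 level of the 3 Thrsp probe sets on each array by HBCD dose in mg/kg, with points for arrays, a line for the group mean and bars for the SD (n = 6). The groups overlap in all 3 panels, and the lowest array at 64.1 mg/kg stands apart from its group in each, at 9.77 in the brightest probe set.

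Klf9 encodes a Krüppel-like transcription factor that represses many of its targets. Its brightest probe set (1370209_at) read 9.50 at the lowest, 9.73 at the median and 10.09 at the highest vehicle array. At 641 mg/kg the arrays read 8.98, 9.08 and 9.27 in the same order. All 6 arrays at this dose lay below every vehicle array, which held in this direction for 1 of the 15 probe sets and for 0.654% of all probe sets. The group means were 9.10 ± 0.11 and 9.75 ± 0.22, a 1.56-fold lower level (95% CI 1.24 to 1.97; log2 difference -0.65, SE 0.16; limma adjusted p = 0.0327).

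This call for Klf9 lay close to the threshold. Leaving out each array in turn gave levels 1.49-fold to 1.62-fold lower, with adjusted p-values from 0.0118 to 0.0962. The call was lost without vehicle replicate 2, 4 or 5 or without replicate 1, 2, 3, 4 or 5 at 641 mg/kg. Of fits lacking an array of either group, only those without vehicle replicate 1, 3 or 6 or 641 mg/kg replicate 6 kept it. The rest of the 28 fits of 36 with the call left out an array of another dose, which cannot change this fold. The call was also lost when the tests of all 5 doses were adjusted together (limma adjusted p = 0.142).

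The second Klf9 probe set (1387882_at) pointed the same way. Vehicle arrays ran from 6.35 over 6.64 to 6.88 and arrays at 641 mg/kg from 5.90 over 6.16 to 6.44, so that 5 of the 6 treated arrays lay below the lowest vehicle array. The level was 1.38-fold lower (95% CI 1.11 to 1.72), which did not pass adjustment (limma adjusted p = 0.156). Deviations of this probe set from the group means correlated at 0.785 with those of the brightest over 36 arrays. The remaining one (1390076_at) was dim, at 3.62 and below the array median on every array, and read 3.57 in both groups (fold 1.00, 0.853 to 1.18). Averaging the 3 probe sets gave a fold of 0.774 (adjusted p = 0.112), without a call.

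The order of the Klf9 means did not follow dose. In the brightest probe set vehicle (9.75) and 6.41 mg/kg (9.73 ± 0.35) were highest, followed by 0.06 mg/kg (9.41 ± 0.28), 0.641 mg/kg (9.36 ± 0.45), 64.1 mg/kg (9.35 ± 0.31) and 641 mg/kg (9.10 ± 0.11). No pair of neighbours in this order differed beyond the spread. The same held for all 75 neighbouring pairs of the 15 probe sets (smallest limma adjusted p = 0.676). Neighbours were taken after the groups were sorted by their means, which picks small gaps, so this does not show that the levels are alike. Further apart, the log2 difference of 641 from 6.41 mg/kg in the brightest Klf9 probe set was -0.630 (limma adjusted p = 0.0515). The linear slope over dose ranks fell by 0.0868 on the log2 scale per step (limma adjusted p = 0.139), and the moderated F test over all doses gave an adjusted p of 0.186. The slope called 1.35% and the F test 0.773% of all probe sets, and neither called any of the 15.

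Below the top dose, Klf9 arrays overlapped vehicle in every group. At 64.1 mg/kg they ran from 8.82 over 9.40 to 9.63, all 6 below the vehicle mean and 3 below the lowest vehicle array, a fold of 0.762 (95% CI 0.605 to 0.962; limma adjusted p = 0.739). At 0.641 mg/kg 4 arrays were below the lowest vehicle array and 1 above the highest, at 10.14. The fold was 0.767 (0.608 to 0.967; limma adjusted p = 0.9995). At 0.06 mg/kg 4 arrays were likewise below the lowest vehicle array, with a fold of 0.795 (0.630 to 1.00; limma adjusted p = 0.9994). At 6.41 mg/kg the fold was 0.989. At 64.1 mg/kg 3 arrays (replicates 2, 3 and 4) had the lowest macrophage marker levels of that group, 7.52 to 7.83 as the mean of 8 of 10 listed markers, against 8.36 to 8.71 in vehicle. These 3 arrays, left out after the data were seen, were also the lowest 3 in Klf9 of that group, in the brightest and the second probe set. Leaving them out therefore had to raise the Klf9 fold at 64.1 mg/kg. It was then 0.897 in the brightest probe set and 1.00 in the second, from which nothing can be concluded about the markers. In 2 lower groups the array lowest in macrophage markers had the highest Klf9 level. It was 10.14 at a marker level of 7.78 (0.641 mg/kg, replicate 4) and 10.24 at 7.71 (6.41 mg/kg, replicate 2). At 0.06 mg/kg the array lowest in these markers (replicate 3, 7.92) read 9.17 in Klf9, near the lowest of its group (9.15). The part of macrophage content in these Klf9 levels was not tested.

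Macrophage marker levels at 641 mg/kg were 8.34 (8.13 to 8.55), beside 8.47 in vehicle, with all 8 markers below vehicle in value and none called. All 8 were also below vehicle in value, without a call, at every lower dose, each set against the same vehicle arrays. Deviations of the brightest Klf9 probe set from the group means correlated at -0.111 with those of the macrophage markers and at 0.375 with the Gapdh 3-prime minus 5-prime difference over 36 arrays. The 3 neutrophil markers measured, of 4 listed, averaged 3.96 (3.88 to 4.04) at 641 mg/kg and 4.21 (3.81 to 4.47) in vehicle, all below vehicle in value and none called. These 3 were likewise below vehicle in value at every lower dose. The 5 lymphocyte markers measured, of 6 listed, averaged 4.51 (4.21 to 4.70) and 4.70 (4.59 to 4.81), with 4 below vehicle in value. The neutrophil and lymphocyte averages lay below the array medians (4.829 to 4.899) in both groups. Of the 5 lymphocyte markers Cd8a, a marker of cytotoxic T cells, was called lower, beside 0.512% of all probe sets. Its brightest probe set stood at 0.633-fold (95% CI 0.509 to 0.788; limma adjusted p = 0.0176), while its other 2 probe sets were not called (0.878 and 0.952). The hepatocyte markers averaged 13.61 at 641 mg/kg and 13.67 in vehicle. The part of these in the Klf9 result was not tested.

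**Figure D3:**
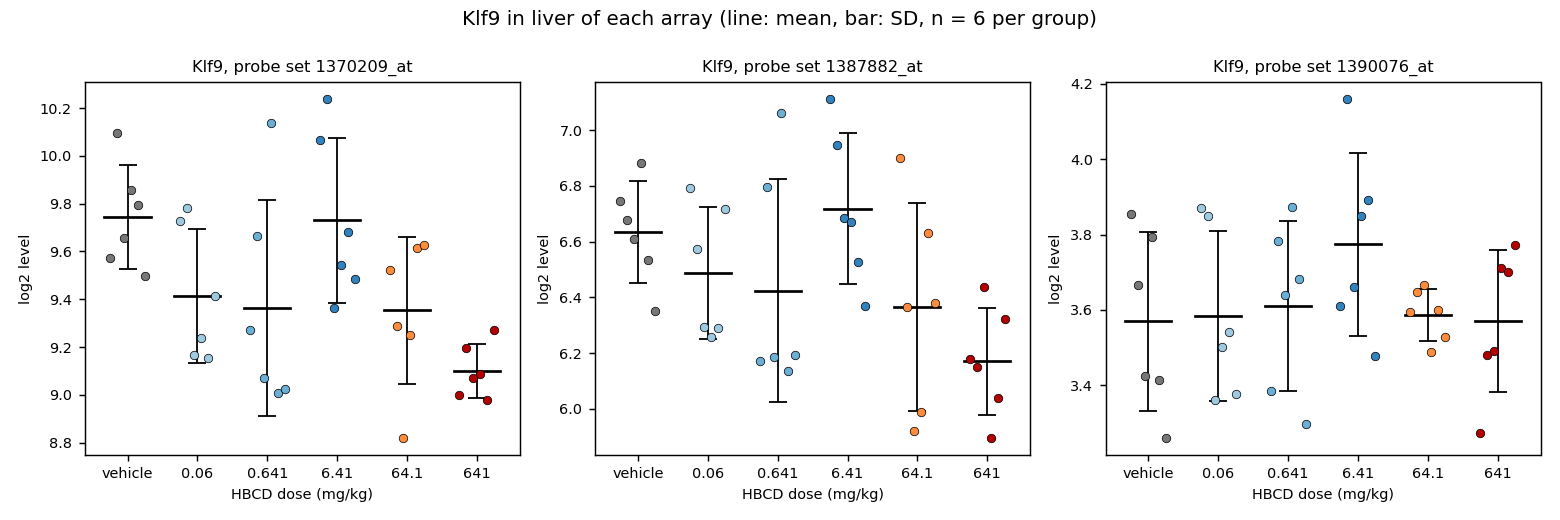
Log2 level of the 3 Klf9 probe sets on each array by HBCD dose in mg/kg, with points for arrays, a line for the group mean and bars for the SD (n = 6). In the left panel the 6 arrays at 641 mg/kg lie between 8.98 and 9.27, all below the lowest vehicle array at 9.50, while the dim probe set on the right shows no such gap.

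**Figure D4:**
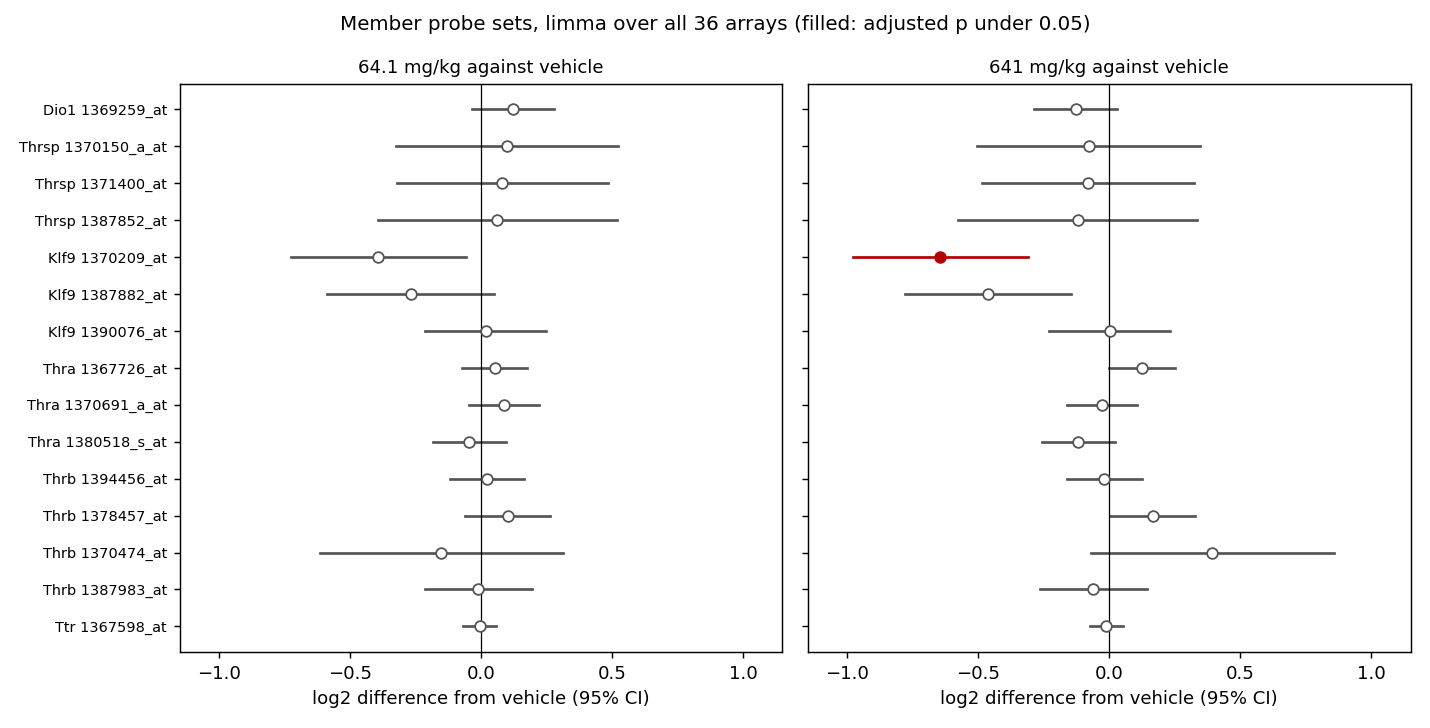
Log2 difference from vehicle with its 95% confidence interval for all 15 probe sets at 64.1 mg/kg (left) and 641 mg/kg (right), from limma over 36 arrays. The filled point, Klf9 1370209_at at 641 mg/kg, is the 1 call, at -0.65.

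The genes whose levels ran most like each of the 6 over the 36 arrays were listed by Pearson correlation with its brightest probe set, as a description of arrays that share dose groups, tissue and processing. For Klf9 they were Xbp1 (r = 0.860), a transcription factor of the unfolded protein response, Chn2 (0.837) and Tmx4 (0.822). Xbp1 stood at 0.784-fold at 641 mg/kg without a call (limma adjusted p = 0.386). For Thrsp they were Igsf8 (0.657), Acly (0.634), the citrate lyase that supplies acetyl-CoA for fat synthesis, and Wnt9a (0.586). For Thrb they were Hhex (0.727), a liver transcription factor, Lurap1l (0.703) and Rtp3 (0.677). For Dio1 (Ppp1r14a, Wfdc3 and Islr), Thra (Peg12, Wdr55 and Kpna4) and Ttr (Arf6, Lrrc17 and St3gal2) the correlations lay between 0.529 and 0.670. None of these genes was called at 641 mg/kg.

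The 6 genes did not run together as one group across arrays. Deviations of Dio1 from its group means correlated at 0.0183 with those of the brightest Thrsp probe set and at 0.0294 with those of the brightest Klf9 probe set. Thrsp and Klf9 correlated at -0.200, and the highest value between different genes was that of Klf9 with the brightest Thrb probe set (0.527).

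Around these 6 genes, 82 of 94 listed genes of 6 groups were measured. At 641 mg/kg 5 rose and 5 fell, where 1.13% of all probe sets were called higher and 0.512% lower. The lists were chosen with earlier results of these data known, and each gene is read by its brightest probe set. Their counts of calls are therefore a description, not a test against the share of all probe sets. Among genes of transport, carriage and metabolism of the hormone 4 of 16 rose and 2 fell, beside the same 1.13% and 0.512% of all probe sets, and the list's median log2 difference was -0.0719 with a mean of 0.0552, of opposite sign. Ugt2b1, a glucuronosyltransferase, rose 2.13-fold (95% CI 1.87 to 2.43; limma adjusted p = 5.77e-10) and was the only one of the 82 called at 64.1 mg/kg. The organic anion transporters Slco1a4 (1.89-fold) and Slco1a1 (1.27-fold) also rose. Sult1b1, a sulfotransferase that takes thyroid hormones, rose 1.19-fold, without a call in a fit of these 2 groups alone (limma adjusted p = 0.0601). It lies outside the rule for naming genes and was chosen after its values were seen.

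Crym, which encodes the cytosolic protein that binds triiodothyronine, fell in this group. Its arrays ran from 9.67 over 9.84 to 9.95 in vehicle and from 9.37 over 9.42 to 9.65 at 641 mg/kg. The groups thus did not overlap, which held in this direction for 0.654% of all probe sets. The level was 1.27-fold lower (95% CI 1.13 to 1.43; limma adjusted p = 0.0200), and the call was lost without vehicle replicate 5 (adjusted p = 0.0635), without replicate 4 at 641 mg/kg (0.0505) or with 5 doses adjusted together (0.0901). The sulfotransferase Sult1a1 fell 1.20-fold (adjusted p = 0.0107). Deiodinases other than Dio1 were dim, with Dio2 at a mean of 2.41 and Dio3 at 4.30, and neither was called.

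Of 17 other hepatic genes that respond to thyroid hormone, 1 rose and 1 fell (1.13% and 0.512% of all probe sets), and the median log2 difference was -0.0677. Me1, malic enzyme and a classic target that rises with the hormone, was 1.52-fold higher (95% CI 1.25 to 1.85; limma adjusted p = 0.0151), from 8.95 ± 0.34 to 9.55 ± 0.29. This call was lost without vehicle replicate 2 or 5 or without replicate 2 at 641 mg/kg, with adjusted p-values of 0.0531 to 0.0659, with 5 doses adjusted together (0.0673) and in a fit of these 2 groups alone (0.0798). The second Me1 probe set stood at 1.45-fold (adjusted p = 0.160). Cpt1a, which moves long-chain fatty acids into mitochondria and also rises with the hormone, was 1.49-fold lower (1.29 to 1.71; adjusted p = 5.58e-04), from 10.33 ± 0.22 to 9.75 ± 0.15. Its second probe set stood at 0.758-fold (adjusted p = 0.117).

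In fatty acid synthesis, where Thrsp acts, Me1 rose and 2 of 14 genes fell (1.13% and 0.512% of all probe sets), with a median of -0.0134. The desaturase Scd fell 3.90-fold (95% CI 2.41 to 6.31; limma adjusted p = 6.01e-04). Its vehicle arrays varied widely, from 8.19 to 11.12, and overlapped those at 641 mg/kg, from 7.45 to 8.41. The elongase Elovl5 fell 1.16-fold (adjusted p = 0.00772), while its second probe set was not called (0.880-fold, adjusted p = 0.583). The Elovl5 call was lost in a fit of these 2 groups alone (0.0984) and as the mean of its probe sets (0.119). Acly, whose level ran with that of Thrsp, stood at 1.08-fold (adjusted p = 0.799).

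Nothing was called in the other 3 lists. Among 14 receptor partners and coregulators the smallest p belonged to the corepressor-associated deacetylase Hdac3 (1.07-fold, limma adjusted p = 0.415). Among 14 glucocorticoid and clock genes, which include known partners in the regulation of Klf9, it belonged to Tat, a tyrosine aminotransferase induced by glucocorticoids (0.717-fold, adjusted p = 0.237). Among 13 other Krüppel-like factors it belonged to Klf3 (0.847-fold, adjusted p = 0.0804), and 10 of the 13 were below vehicle in value. The same number, 10 of 13, were below vehicle at 0.06 mg/kg, with a median log2 difference of -0.0874. At 0.641, 6.41 and 64.1 mg/kg 9, 4 and 8 of the 13 were below it, each dose set against the same vehicle arrays. None was called at these lower doses. At the top dose the medians of the 3 lists were -0.0236, -0.0100 and -0.0733.

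**Figure D5:**
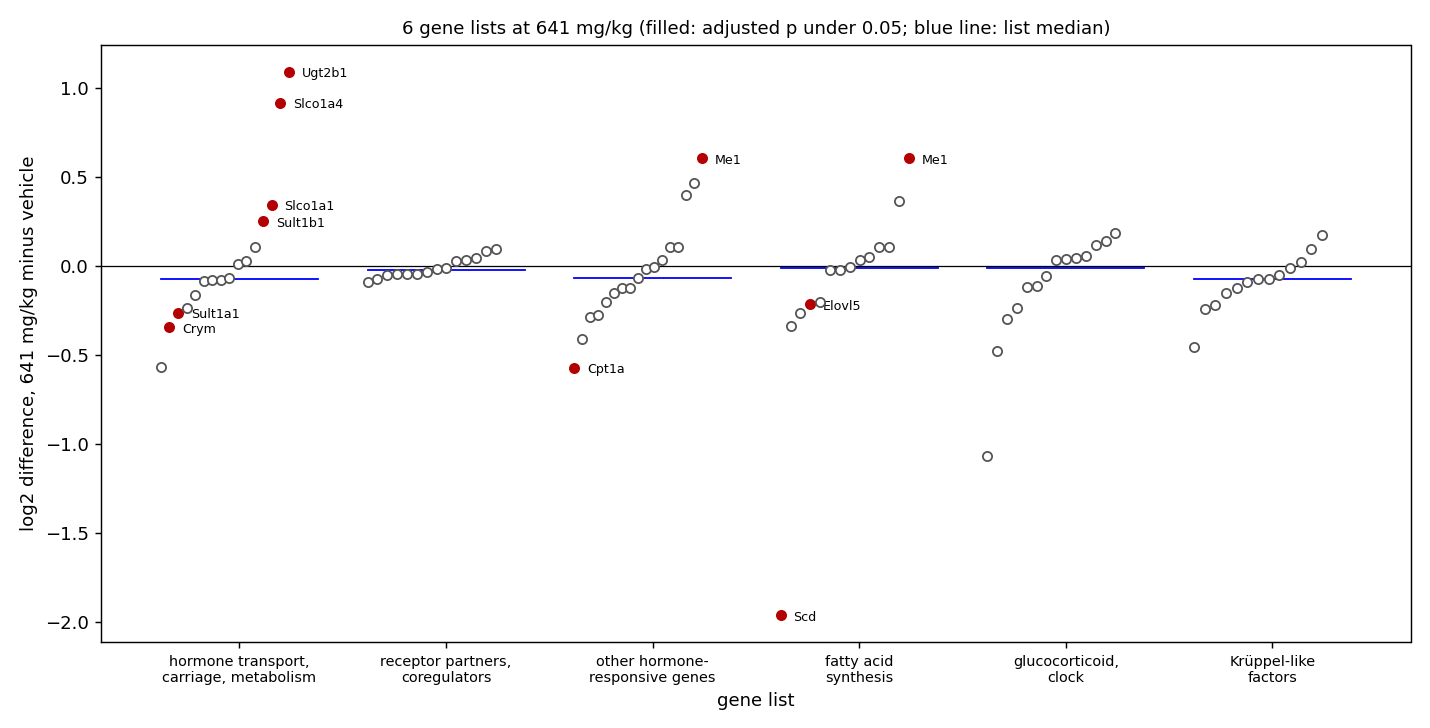
Log2 difference of 641 mg/kg from vehicle for the genes of 6 lists, each gene by its brightest probe set, with filled points for calls (limma adjusted p under 0.05) and a blue line for the list median. Medians lie between -0.0733 and -0.0100, Me1 stands in 2 lists, and the lowest filled point is Scd at -1.96.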

How the data were processed

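Liver RNA of 36 samples in 6 groups of 6 was hybridised to one Affymetrix rat array each, after passing a minimum RNA integrity number of 7 per the labels' protocols. The deposited log2 values are the authors' RMA output from affy, per the submitters' processing notes; versions and settings are not given in the sources used here. RMA corrects background, normalizes between arrays and summarises probes, which compresses changes of dim probe sets. Array medians lay between 4.829 and 4.899, within groups arrays correlated at 0.991 to 0.997, no 2 arrays were identical, and all were used. For arrays, their number limits the precision.

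Of 31099 probe sets, 57 controls were left out. Symbols came from the platform annotation, updated through the RefSeq gene table of GRCr8 (20758 of 20826 probe sets with 1 symbol matched by gene ID, 68 kept unchanged). The 436 with several symbols and the 9780 with none were tested but not named. Listed genes outside the 6 were represented by their brightest probe set.

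The series' design text names R/maanova at a false discovery rate of 5%; limma 3.58.1 in R 4.3.3 was used instead, with group as the single factor, two-sided tests and Benjamini-Hochberg adjustment within each contrast. The fit was tested on simulated data. The 6 genes, the gene lists and the tests were chosen with earlier results of these data known. Named genes were every probe set of the 6 genes, up to 3 called genes per list and direction with the smallest p at 641 mg/kg (or the smallest p where none was called), and the 3 genes of highest correlation with each of the 6. Alternatives covered the replicate block, scaling, dim probe sets (a highest group mean of at least 6), variance models, array weights, smaller fits, joint adjustment, the mean of probe sets, and each array left out.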

Additional observations from a re-analysis of the deposited data

Results flagged for a closer look

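In 5 of 90 groups (15 probe sets in 6 groups) 1 array stood apart from the other 5 by Dixon's criterion, and chance marks about 1 group in 20. The lowest array of the 64.1 mg/kg group, replicate 5, did so in all 3 Thrsp probe sets, which measure one transcript and are not independent. It read 9.77 in 1370150_a_at (nearest array 10.52), 9.44 in 1371400_at (nearest 10.23) and 7.89 in 1387852_at (nearest 8.77). In Thra 1367726_at replicate 4 at 0.06 mg/kg was low, at 5.90 beside a nearest array of 6.11. In Thrb 1378457_at vehicle replicate 2 was high, at 8.23 beside a nearest array of 7.93.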

How the results depend on the processing

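The count of called probe sets at 641 mg/kg was 1. It became 2 in a fit of the 2 groups compared, where Klf9 1387882_at was called too (adjusted p = 0.0337), 0 with 5 doses adjusted together (Klf9 adjusted p = 0.142) and 0 with the mean of the probe sets of a gene, and leaving out 1 array gave 0 to 1. The F test count was 0 and ranged from 0 to 1 over arrays left out (1 without 0.641 mg/kg replicate 4). Klf9 was called in 36 of 46 settings, with limma adjusted p-values from 0.00229 to 0.142. Many of these settings left out an array of a dose outside the comparison, which cannot change the fold. A fold was counted as reversed where it changed sign by more than 1 SE. That held for 5 of 3380 combinations of fold and setting, none of them called. Klf9 1387882_at at 64.1 mg/kg became 1.00 without replicates 2, 3 and 4 of that dose, an alternative chosen after seeing the data. Those were the 3 lowest arrays of the group in this probe set, so the fold had to rise. As the mean of the probe sets, Thra at 641 mg/kg became 0.995, and Thrb became 1.01, 1.05 and 1.09 at 0.06, 0.641 and 641 mg/kg. A change of sign of any size under at least 1 setting occurred in 36 of 75 folds.

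With the replicate number as a block, the Klf9 adjusted p was 0.0155 and 1 of the 15 was called, with 500 calls over all probe sets in place of 511 and 460 shared. Of 90 same-number pairs 14 correlated above 0.1, and 11 of 36 arrays correlated best with their own number. No chance level was computed for either count, so they do not settle whether the numbers pair the samples. Of the listed genes, the calls of Me1 and Crym were lost with 5 doses adjusted together (0.0673 and 0.0901), those of Me1, Elovl5 and Sult1b1 in the 2-group fit (0.0798, 0.0984 and 0.0601), and that of Elovl5 with the mean of probe sets (0.119). Klf3 was called after repeated quantile normalization (0.0443) and after the dim filter (0.0291).

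Other scalings moved the median of all probe sets by about 0.01 at most. Intervals are widest for Thrsp and Thrb 1370474_at, whose spread within groups is large. The dim probe sets of Klf9, Thra and Thrb lie below the array medians, and no detection calls were used.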
